A study of Mus musculus with 16 samples.

Results

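The activity-induced transcription factors of the EGR and NR4A families, together with Npas4 and the immediate-early response genes Ier2 and Ier5, were followed in the mouse somatosensory cortex after sleep disruption (SD). The members are Egr1, Egr2, Egr3, Egr4, Npas4, Nr4a1, Nr4a2, Nr4a3, Ier2 and Ier5, taken by symbol as 10 of the 24421 genes in the deposited tables. All 10 had a read in every library, from 126 to 36657 reads per gene and library, so none was lost to a filter on low values.

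The groups are CTL-WT (undisturbed wild-type mice), SD-WT (wild-type mice after SD), CTL-AcPbKO (undisturbed AcPb-/- mice) and SD-AcPbKO (AcPb-/- mice after SD). AcPb is the neuron-specific form of the IL1 receptor accessory protein. SD was 8 h of gentle handling from ZT20 to ZT4, where ZT0 is light onset, and tissue of all groups was collected at ZT4. The labels describe all mice as male C57BL/6 or homozygous AcPb-/- and 2 to 3 months old, with no other treatment named. The tables hold 3 libraries for each group, and 4 of the 16 labelled samples were not analysed here. The tissue is a mixture of cell types, so fewer cells of a type and less RNA per cell cannot be told apart. The labels do not say which libraries, if any, share an animal or a preparation, so p-values measure the spread between these libraries.

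Total reads on genes were 32.9 to 41.6 M in CTL-WT, 58.8 to 71.8 M in SD-WT, 26.5 to 35.7 M in CTL-AcPbKO and 63.4 to 71.9 M in SD-AcPbKO. Depth moved with SD, with the smallest SD library 1.41 times as deep as the deepest control. Il1rap, the gene that encodes AcPb, had mean normalized counts of 1497 ± 21.9 (SD, n = 3), 1825 ± 95.6, 1583 ± 66.1 and 1971 ± 78.9 in CTL-WT, SD-WT, CTL-AcPbKO and SD-AcPbKO. The gene count joins all forms of the transcript and does not check the genotype. In 4 of the 6 controls (CTL-WT replicates 02 and 03, CTL-AcPbKO replicates 04 and 05), Xist, the RNA that coats the inactive X chromosome of females, had 25352 to 39358 reads, against at most 2 reads of 4 Y-linked genes. The other 8 libraries had 5 to 13 Xist reads and 5105 to 10593 Y-linked reads, so these 4 controls go against the labelled sex. All SD libraries belong to the second kind. Every SD result was therefore also fitted over the 12 libraries with a term for the presence of Xist reads, which only the controls can estimate, and without these 4 libraries, which leaves 1 control for each genotype that is assumed to vary like the other groups.

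Markers of excitatory neurons (8 genes) were detected in every library, with summed normalized counts of 269001 to 350875, as were those of the other cortical cell types. Of these 8, 1 was higher and 2 lower after SD in WT mice, and 1 and 1 in AcPb-/- mice. Of 6 inhibitory neuron markers, 2 were higher and 1 lower in WT, and 1 and 1 in AcPb-/- mice. Of the 6 oligodendrocyte markers, 4 were lower after SD in WT and 1 in AcPb-/- mice. Of the 6 microglial markers 1 was lower in WT and 3 in AcPb-/- mice, and the sums did not overlap in either (14256 to 15598 in CTL-WT, 13011 to 14066 in SD-WT, 14099.6 to 14973 in CTL-AcPbKO and 10210.3 to 12368 in SD-AcPbKO). Of 6 astrocyte markers 2 were lower in WT and 1 in AcPb-/- mice, and of 6 endothelial markers 2 were higher and 1 lower in each genotype. Of all genes 13.2% were higher and 12.2% lower after SD in WT mice, and 14.1% and 13.3% in AcPb-/- mice. The part of the marker shifts in the results for the members was not tested. Striatal neuron markers (7 genes) summed to 10492 to 21574 in CTL-WT, 12954 to 15285 in SD-WT, 11573 to 16031 in CTL-AcPbKO and 15418 to 19178 in SD-AcPbKO, with the highest control sums in CTL-WT replicate 01 and CTL-AcPbKO replicate 03, and 2 of 7 were lower after SD in WT and 0 in AcPb-/- mice. Choroid plexus markers (5 genes) reached 17820 in SD-AcPbKO replicate 04 and 251 to 559.7 elsewhere. The 4 haemoglobin genes among the red blood cell markers were at 0 in all libraries.

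Immediate-early genes are transcribed within minutes of synaptic activity without new protein synthesis, by factors such as CREB and SRF that already sit in the nucleus. EGR proteins are zinc-finger factors, NR4A proteins are orphan nuclear receptors whose activity follows their abundance, and NPAS4 is a neuronal bHLH-PAS factor induced by calcium entry. In the cortex these transcripts are widely used as markers of recent neuronal activity and wakefulness, and their products drive later genes such as Bdnf.

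Windows of 250 bases before RefSeq start sites (GRCm38.p6) were searched for 7 of the 10 members. These were 11 windows in all, with none for Egr1, Egr3 or Ier2. They are shown for a pair of genes whose levels moved together between libraries of a group (Egr2 and Nr4a1) and a pair downregulated after SD in WT mice (Egr4 and Nr4a2), and each is written 5′ to 3′ on the strand of its gene. Capitals mark matches to the motifs searched. For Egr2 the window of 1 of 5 start sites is given.
Egr2 at chr10:67537619-67537868 (plus strand): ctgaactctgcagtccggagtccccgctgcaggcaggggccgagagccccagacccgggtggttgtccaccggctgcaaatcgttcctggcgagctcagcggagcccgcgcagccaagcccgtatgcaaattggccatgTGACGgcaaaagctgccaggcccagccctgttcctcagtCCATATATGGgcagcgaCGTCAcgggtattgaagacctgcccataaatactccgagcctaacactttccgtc
Nr4a1 at chr15:101266596-101266845 (plus strand): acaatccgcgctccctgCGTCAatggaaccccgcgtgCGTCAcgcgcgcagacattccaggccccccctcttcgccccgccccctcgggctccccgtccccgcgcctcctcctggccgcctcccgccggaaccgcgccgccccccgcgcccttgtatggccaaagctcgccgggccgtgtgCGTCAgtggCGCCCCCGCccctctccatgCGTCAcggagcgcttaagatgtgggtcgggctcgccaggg
Egr4 at chr6:85513590-85513839 (minus strand): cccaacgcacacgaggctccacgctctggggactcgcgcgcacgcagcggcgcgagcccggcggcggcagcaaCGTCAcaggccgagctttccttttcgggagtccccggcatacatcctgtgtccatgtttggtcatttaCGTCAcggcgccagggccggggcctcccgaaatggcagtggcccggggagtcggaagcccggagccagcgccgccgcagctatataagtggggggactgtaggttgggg
Nr4a2 at chr2:57124004-57124253 (minus strand): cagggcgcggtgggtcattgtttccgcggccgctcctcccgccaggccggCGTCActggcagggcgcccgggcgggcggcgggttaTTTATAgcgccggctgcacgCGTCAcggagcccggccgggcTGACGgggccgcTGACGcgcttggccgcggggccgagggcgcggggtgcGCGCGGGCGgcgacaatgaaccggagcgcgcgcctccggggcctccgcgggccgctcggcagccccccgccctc
The motifs were searched on both strands. The core cAMP response element TGACG, a CREB motif, occurred in windows of 6 of these 7 members (8 of 11 windows), against 17.8% of 32851 windows of all genes. The printed windows of Nr4a1 and Nr4a2 hold 4 such matches each, and those of Egr2 and Egr4 hold 2 each. The full element TGACGTCA, which contains the core, occurred in 0 of the 11 windows and in 1.55% of all windows. The CArG box, the SRF motif, occurred in 4 windows of Egr2, 3 of which overlap, and in 1.47% of all windows, and in the printed Egr2 window it begins 72 bases before the start. The EGR site GCGNGGGCG occurred in the windows of Nr4a1 and Nr4a2, against 4.7% of all windows. The NR4A motif AAAGGTCA was in 0 of the 11 windows and 1.34% of all windows, and TATAAA was in 1 of the 11, that of Nr4a2, and 12.4% of all windows. These matches are descriptions of letters and not of binding.

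After SD in WT mice, Egr3 was upregulated and Egr4 and Nr4a2 were downregulated, so 3 of the 10 members passed the threshold of an adjusted p under 0.05 (limma, Benjamini-Hochberg over all genes). Over all 20417 genes tested in that comparison 25.4% passed, 13.2% higher and 12.2% lower. After SD in AcPb-/- mice, Egr3 was again upregulated, and Egr4 and Ier2 were downregulated, again 3 of 10 against 27.4% of 20574 genes. The count of members was thus close to the background in both genotypes. The median log2 fold change of the members was 0.25 in WT and 0.17 in AcPb-/- mice, against -0.0039 and 0.014 over all genes. These comparisons share no library. All 3 calls in each genotype held when any 1 library was left out, and 0 of the 10 members were called in either genotype with the replicate number as a block, a fit with 1 residual degree of freedom.

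**Figure D1:**
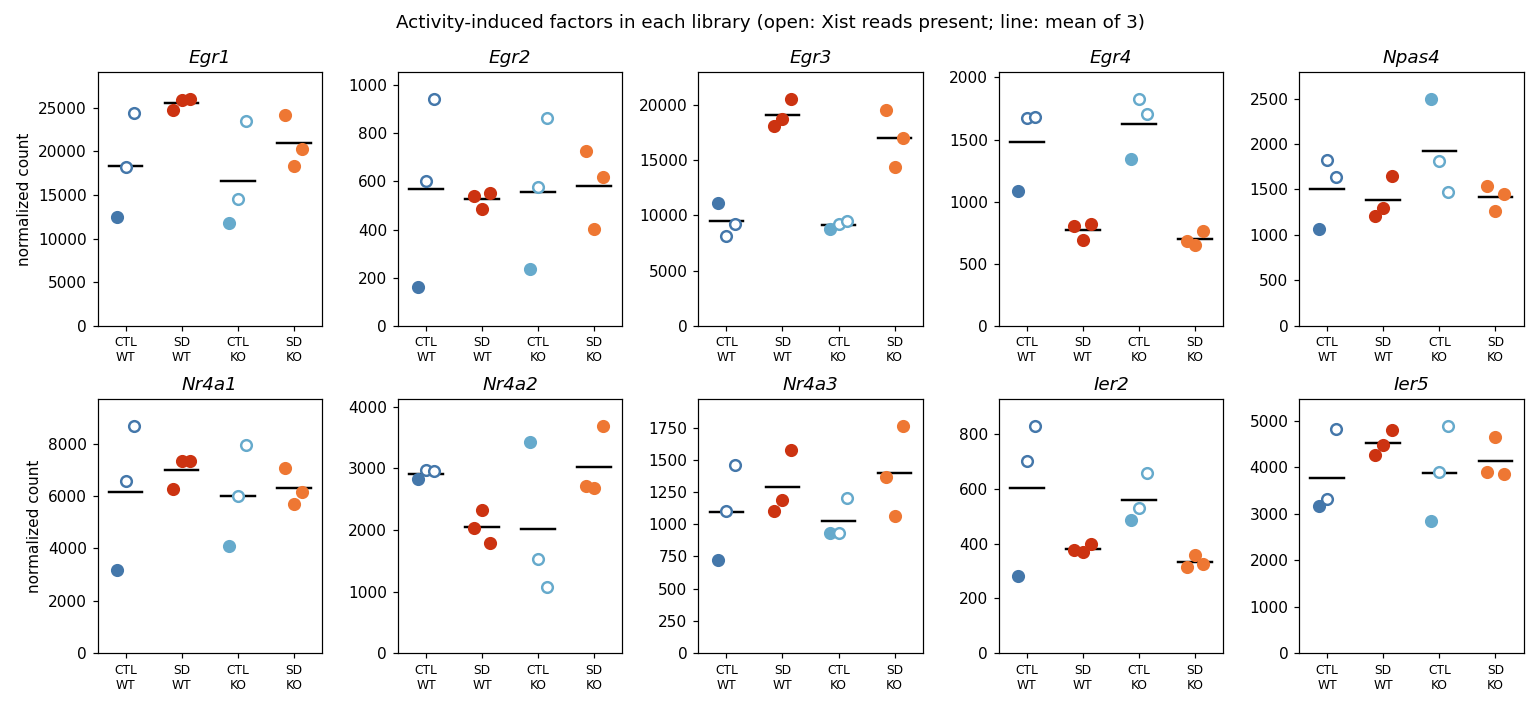
Normalized counts (y axis, linear from 0) of the 10 members in each of the 12 libraries, by group (x axis; KO is AcPb-/-). Points are libraries, open where Xist reads were present, and lines are the means of 3. Egr3 is higher and Egr4 is lower in all SD libraries than in all controls, and the filled control point is the lowest of its group for most other genes, Npas4, Nr4a2 and Nr4a3 in CTL-AcPbKO being exceptions.

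Egr1 (chr18:34859823-34864984, GRCm38), the most abundant member and a factor in synaptic plasticity, had normalized counts of 12493, 18195 and 24451 in CTL-WT replicates 01, 02 and 03. In SD-WT replicates 01, 02 and 04 it had 24704, 25888 and 26007. The SD values all lay above the controls, by a narrow margin over replicate 03. In CTL-AcPbKO replicates 03, 04 and 05 it had 11787, 14546 and 23447, and in SD-AcPbKO replicates 02, 03 and 04 it had 24191, 18349 and 20279, so that the groups overlapped. The log2 fold change (SD over CTL) was 0.53 (SE 0.18, limma adjusted p = 0.0601) in WT and 0.39 (SE 0.22, limma adjusted p = 0.233) in AcPb-/- mice. Neither passed the threshold. The WT value passed in edgeR on recovered reads (0.48, edgeR adjusted p = 0.0458). It did not pass in DESeq2 (0.47, DESeq2 adjusted p = 0.174) or in 1 fit of 12 libraries (0.53, limma adjusted p = 0.135). Without CTL-WT replicate 03 the WT value was 0.76 (limma adjusted p = 0.00522), and without CTL-AcPbKO replicate 05 the AcPb-/- value was 0.67 (limma adjusted p = 0.0117). Each was the only pass among the 6 fits of its genotype with 1 library left out. With the Xist term Egr1 was higher after SD in both genotypes, by 0.99 (limma adjusted p = 0.00495) and 0.86 (limma adjusted p = 0.00702).

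Egr2 (chr10:67535475-67542188), known for its role in myelination and in late phases of plasticity, had 159, 601 and 942 normalized counts in CTL-WT and 539, 486 and 553 in SD-WT. The AcPb-/- libraries had 235, 576 and 862 in CTL-AcPbKO and 726, 401 and 617 in SD-AcPbKO. The controls enclosed the SD values in both genotypes. The CTL-WT libraries spanned 5.91-fold, the widest of any member, against 1.14-fold in SD-WT. The log2 fold changes of 0.23 (SE 0.48, limma adjusted p = 0.769) and 0.21 (SE 0.42, limma adjusted p = 0.744) did not pass. In WT mice the direction depended on the scale, since the mean of counts was 568 ± 392 (SD, n = 3) in CTL-WT and 526 ± 35.3 in SD-WT. The Xist term gave 1.5 (limma adjusted p = 0.00463) and 1.48 (limma adjusted p = 0.00302).

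Egr3 (chr14:70077203-70082614), a factor needed for muscle spindle formation and long-term memory, had 11139, 8129 and 9251 normalized counts in CTL-WT and 18086, 18701 and 20542 in SD-WT. In CTL-AcPbKO it had 8795, 9205 and 9528, and in SD-AcPbKO 19549, 14387 and 17009. Every SD library was above every control in both genotypes. Egr3 was upregulated by a log2 fold change of 1.02 (SE 0.10, limma adjusted p = 0.000293) in WT and 0.88 (SE 0.10, limma adjusted p = 0.00107) in AcPb-/- mice, that is 2.02-fold and 1.84-fold. Leaving out any 1 library kept the call, with values of 0.91 to 1.14 and 0.77 to 1.0. The Xist term gave 0.93 and 0.79, both past the threshold. Without the libraries with Xist the WT value was 0.78 (limma adjusted p = 0.0656), which did not pass, and the AcPb-/- value was 0.94 (limma adjusted p = 0.031).

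Egr4 (chr6:85511121-85513589), a factor needed for male germ cell maturation, moved the opposite way. It had 1084, 1672 and 1681 normalized counts in CTL-WT and 801, 688 and 819.8 in SD-WT. In AcPb-/- mice the values were 1346, 1826 and 1702 in CTL-AcPbKO and 679.9, 653 and 763 in SD-AcPbKO. Every SD library was below every control in both genotypes. Egr4 was downregulated by a log2 fold change of -0.92 (SE 0.15, limma adjusted p = 0.00254) in WT and -1.21 (SE 0.12, limma adjusted p = 0.000614) in AcPb-/- mice. The fold was smaller with the Xist term, -0.58 (limma adjusted p = 0.0035) and -0.87 (limma adjusted p = 0.000304). Without the libraries with Xist it was -0.50 (limma adjusted p = 0.091) in WT, which did not pass, and -0.95 (limma adjusted p = 0.0248) in AcPb-/- mice.

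Within a library the ratio of Egr3 to Egr4 reads does not depend on scaling or depth. It was 10.3, 4.86 and 5.5 in CTL-WT replicates 01, 02 and 03 and 6.53, 5.04 and 5.6 in CTL-AcPbKO replicates 03, 04 and 05. In SD-WT it was 22.6, 27.2 and 25.1, and in SD-AcPbKO 28.8, 22.0 and 22.3. The SD libraries did not overlap the controls in either genotype. This follows from the separation of Egr3 and Egr4 given above and is not a further result. CTL-WT replicate 01, a control without Xist reads, had the highest control ratio. The ratio of Egr1 to Egr4 behaved alike in that it was 7.97 to 14.5 in the controls and 26.6 to 37.6 after SD. These ratios were chosen after the values were seen.

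Npas4 (chr19:4984355-4990316), which shapes inhibitory synapses onto active neurons, had 1068, 1819.8 and 1633 normalized counts in CTL-WT and 1209, 1292 and 1643 in SD-WT. In CTL-AcPbKO it had 2494, 1808 and 1473, and in SD-AcPbKO 1537, 1267 and 1453. Groups overlapped in both genotypes. The log2 fold changes were -0.10 (SE 0.18, limma adjusted p = 0.712) and -0.41 (SE 0.17, limma adjusted p = 0.11), and neither passed. The AcPb-/- value passed in DESeq2 on recovered reads (-0.44, DESeq2 adjusted p = 0.0243) and without CTL-AcPbKO replicate 05 (-0.58, limma adjusted p = 0.0231). It did not pass in edgeR (-0.44, edgeR adjusted p = 0.0673) or in 1 fit of 12 libraries (-0.41, limma adjusted p = 0.154). With the Xist term it was -0.38 (limma adjusted p = 0.313).

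Nr4a1 (chr15:101254269-101274795), also called Nur77, had 3169.7, 6568 and 8657 normalized counts in CTL-WT and 6255, 7332 and 7336 in SD-WT. CTL-AcPbKO had 4078, 6010.4 and 7939, and SD-AcPbKO had 7066, 5708 and 6156. The SD values fell inside the control range in both genotypes. The log2 fold changes of 0.30 (SE 0.28, limma adjusted p = 0.48) and 0.12 (SE 0.21, limma adjusted p = 0.696) did not pass. The fit with the Xist term gave 0.97 (limma adjusted p = 0.00306) and 0.79 (limma adjusted p = 0.00561).

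Nr4a3 (chr4:48045153-48086447), also called Nor1, had 722, 1101 and 1459.5 normalized counts in CTL-WT and 1101, 1189 and 1577 in SD-WT. CTL-AcPbKO had 934, 932 and 1206, and SD-AcPbKO had 1366, 1067 and 1761. The log2 fold changes of 0.28 (SE 0.22, limma adjusted p = 0.396) and 0.43 (SE 0.17, limma adjusted p = 0.101) did not pass, and the groups overlapped in both genotypes. The AcPb-/- value passed in DESeq2 (0.45, DESeq2 adjusted p = 0.0265) and without SD-AcPbKO replicate 03 (0.61, limma adjusted p = 0.0222). It did not pass in edgeR (0.45, edgeR adjusted p = 0.0733) or in 1 fit of 12 libraries (0.43, limma adjusted p = 0.194). Under the Xist term it passed at 0.76 in AcPb-/- mice (limma adjusted p = 0.0397) and not at 0.61 in WT mice (limma adjusted p = 0.103).

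Nr4a2 (chr2:57106830-57124003), also called Nurr1, is the receptor that specifies midbrain dopamine neurons, and in the cortex it marks claustrum and deep-layer cells. It had 2822, 2971 and 2960.4 normalized counts in CTL-WT and 2040.0, 2329 and 1794 in SD-WT, with no overlap. In CTL-AcPbKO replicates 03, 04 and 05 it had 3427, 1529 and 1073, and in SD-AcPbKO 2715, 2682 and 3686. The 3 CTL-WT values lay within 1.05-fold of each other, while the CTL-AcPbKO values spanned 3.20-fold. Nr4a2 was downregulated after SD in WT mice by a log2 fold change of -0.51 (SE 0.09, limma adjusted p = 0.00291). It did not pass in 1 fit of all 12 libraries (-0.51, limma adjusted p = 0.245), whose spread includes CTL-AcPbKO, nor without the libraries with Xist (-0.47, limma adjusted p = 0.247), and it passed with the Xist term at a larger change (-0.96, limma adjusted p = 0.0425). In AcPb-/- mice the value was 0.75 (SE 0.36, limma adjusted p = 0.154), and 0.30 with the Xist term (limma adjusted p = 0.518). Without CTL-AcPbKO replicate 03 it was 1.23 (limma adjusted p = 0.00259), and without the libraries with Xist, where replicate 03 is the remaining control, it was -0.19 (limma adjusted p = 0.596).

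Markers of the claustrum (Synpr, Gnb4, Oprk1 and Ntng2, a list chosen after the values were seen) were counted in the same libraries. Their summed normalized counts were 9354 to 9790.1 in CTL-WT and 5847 to 6022 in SD-WT. After SD in WT mice 4 of 4 were lower, against 12.2% of all genes, with log2 fold changes of -0.91 to -0.62. In CTL-AcPbKO replicates 03, 04 and 05 the sums were 9848, 7522 and 6480.3, in the same order as Nr4a2, and in SD-AcPbKO they were 6759 to 8077. There the sums did not follow Nr4a2, whose mean was higher after SD, and 1 of 4 markers was lower after SD, Ntng2, at -0.57 (limma adjusted p = 0.0224). The others did not pass, with 0.53 for Oprk1, 0.02 for Gnb4 and -0.07 for Synpr. The sums of 4 markers of layer 6b (Cplx3, Ctgf, Nxph4 and Moxd1), chosen likewise, were 1776 to 2289 in CTL-WT and 2460 to 2615 in SD-WT, opposite to Nr4a2. Of the 4, only Ctgf passed, higher after SD, and Nxph4 had a log2 fold change of -0.27 (limma adjusted p = 0.612). In CTL-AcPbKO replicates 03, 04 and 05 the sums were 2867, 1743 and 1245, in the same order as Nr4a2, and in SD-AcPbKO 1764 to 3711. The log2 fold changes in AcPb-/- mice were 0.14 to 0.70, in the direction of Nr4a2, with 0 of 4 past the threshold. The part of both lists in the results for Nr4a2 was not tested.

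**Figure D2:**
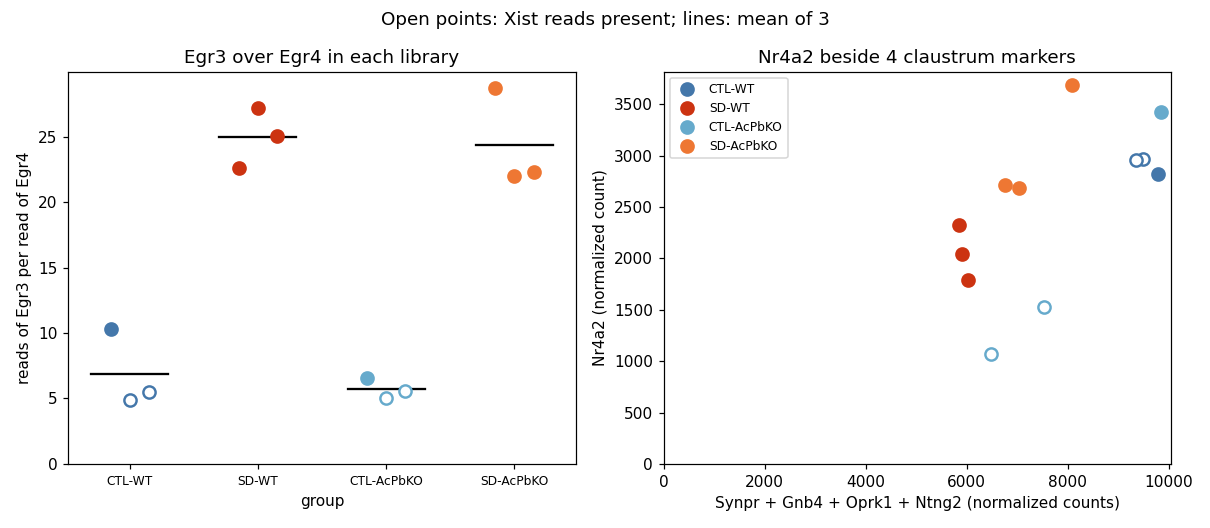
Left, reads of Egr3 per read of Egr4 in each library by group, with lines at the mean of 3; controls lie at 4.86 to 10.3 and SD libraries at 22.0 to 28.8. Right, normalized count of Nr4a2 (y axis) against the sum of 4 claustrum markers (x axis) in the same 12 libraries, colours by group; CTL-WT libraries lie high on both axes and CTL-AcPbKO libraries are spread. Open points are libraries with Xist reads.

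Ier2 (chr8:84661331-84662852), a nuclear protein of the immediate-early response, had 282, 701 and 828 normalized counts in CTL-WT and 375, 369 and 399.9 in SD-WT. CTL-WT replicate 01 lay below the SD values and the other two controls lay above them. In CTL-AcPbKO it had 487, 529.7 and 658, and in SD-AcPbKO 316, 359 and 324, with no overlap. Ier2 was downregulated in AcPb-/- mice by a log2 fold change of -0.73 (SE 0.12, limma adjusted p = 0.00383), and the WT value was -0.52 (SE 0.31, limma adjusted p = 0.255). Without CTL-WT replicate 01 the WT value was -1.0 (limma adjusted p = 0.000828). Neither value passed with the Xist term (0.05 in WT, limma adjusted p = 0.917, and -0.17 in AcPb-/- mice, limma adjusted p = 0.652). The AcPb-/- value did not pass in 1 fit of the 12 libraries either (-0.73, limma adjusted p = 0.0712).

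Ier5 (chr1:155096361-155099636), which takes part in the heat shock response through HSF1, had 3169.7, 3314 and 4813 normalized counts in CTL-WT and 4252, 4476 and 4806 in SD-WT. In CTL-AcPbKO it had 2835, 3906 and 4879, and in SD-AcPbKO 3905, 4655 and 3856. Groups overlapped, and the log2 fold changes of 0.28 (SE 0.13, limma adjusted p = 0.151) and 0.13 (SE 0.17, limma adjusted p = 0.632) did not pass. Without CTL-WT replicate 03 the WT value was 0.48 (limma adjusted p = 0.00341), and with the Xist term it was 0.60 (limma adjusted p = 0.0215). The WT value did not pass in edgeR (0.26, edgeR adjusted p = 0.142) or DESeq2 (0.26, DESeq2 adjusted p = 0.116).

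Groups did not overlap for 4 members in WT mice (Egr1, Egr3, Egr4 and Nr4a2), against 40.2% of all genes, and for 3 in AcPb-/- mice (Egr3, Egr4 and Ier2), against 42.4%. With the Xist term, 7 members were past the threshold in WT mice, with Egr1, Egr2, Egr3, Nr4a1 and Ier5 higher and Egr4 and Nr4a2 lower, against 19.3% of 20978 genes. In AcPb-/- mice 6 were, with Egr1, Egr2, Egr3, Nr4a1 and Nr4a3 higher and Egr4 lower, against 24.7%. Without the 4 libraries, Egr1, Egr2 and Nr4a1 were higher in WT mice (3 of 10, against 2.02% of 20768 genes, and 0 lower, against 1.25%), with values of 1.03, 1.71 and 1.13. In AcPb-/- mice Egr1 and Egr3 were higher and Egr4 and Ier2 lower, 2 of 10 each way against 5.42% higher and 4.6% lower over all genes. The term is estimated from controls in which the libraries without Xist reads were CTL-WT replicate 01 and CTL-AcPbKO replicate 03, so that presence of Xist and any other difference of these 2 libraries cannot be told apart.

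**Figure D3:**
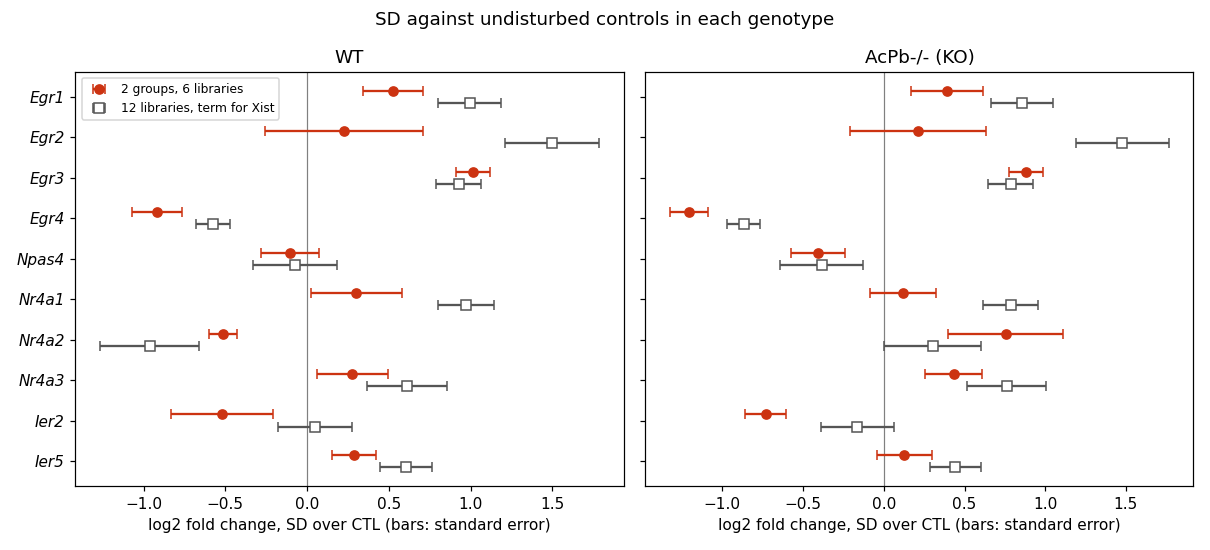
Log2 fold change of SD over CTL (x axis) for each member in WT (left) and AcPb-/- mice (right). Circles are the fits of the 6 libraries compared and squares are the fit of 12 libraries with a term for Xist, and bars are standard errors. Egr3 and Egr4 keep their sides of 0, at 1.02 and -0.92 in WT and 0.88 and -1.21 in AcPb-/- mice, while Egr1, Egr2 and Nr4a1 lie further to the right with the term.

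The low control values were concentrated in single libraries. CTL-WT replicate 01 was the lowest of its group for 9 of the 10 members, all but Egr3, whereas it was the lowest for 38.7% of the 13121 genes whose normalized counts averaged 100 or more. CTL-WT replicate 03 was the highest for 7 members, against 37.8% of those genes. CTL-AcPbKO replicate 03 was the lowest for 7 members (41.1% of genes) and replicate 05 the highest for 7 (34.2%). After SD, replicate 04 of SD-WT was the highest for 9 members (42.0%) and replicate 03 of SD-AcPbKO was the lowest for 8 (38.3%). CTL-WT replicate 01 and CTL-AcPbKO replicate 03 are the libraries with the most striatal marker reads in their groups and the controls without Xist reads, and the part of either in this order was not tested. For most members, though not for most genes, controls spread more than SD libraries. The SD of log2 values was larger in CTL than after SD for 9 members in WT mice, all but Nr4a2, against 44.4% of genes, and for 8 in AcPb-/- mice, all but Egr3 and Nr4a3, against 47.4%.

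**Figure D4:**
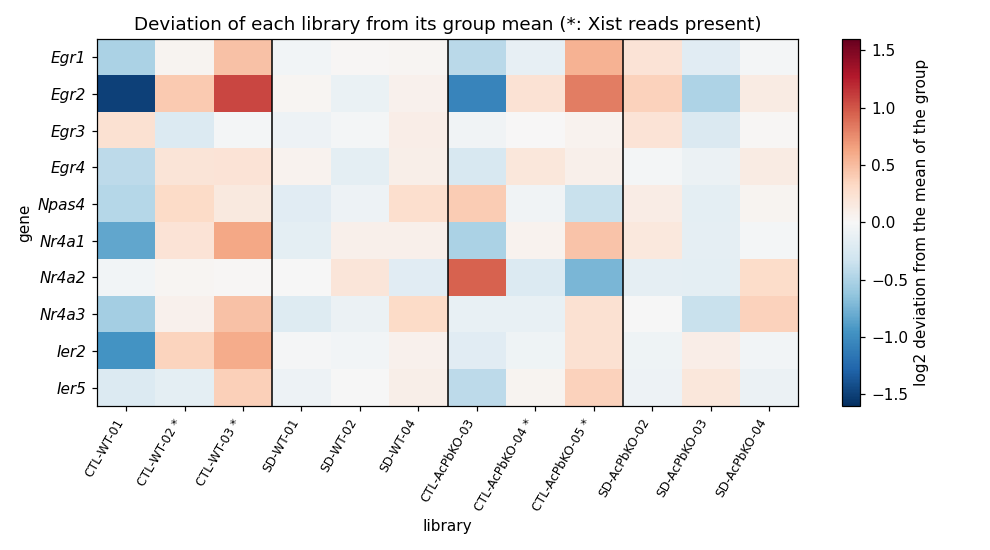
Log2 deviation (colour) of each library (columns, in 4 groups of 3 divided by lines) from the mean of its group, for the 10 members (rows). Asterisks mark libraries with Xist reads. CTL-WT-01 and CTL-AcPbKO-03 are below their group means for most members, with Egr2 in CTL-WT-01 the deepest, and columns after SD are paler.

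As a description over the 12 libraries, deviations from the group means were shared by Egr2 and Nr4a1 (Pearson r = 0.97), Egr1 and Nr4a1 (r = 0.94), Egr1 and Egr2 (r = 0.93) and Nr4a1 and Ier2 (r = 0.89). Egr3 did not share them (r = 0.02 with Egr1 and -0.15 with Egr2), and Nr4a2 had r = -0.57 with Egr1 and -0.72 with Ier5. Across groups, Egr3 and Egr4 had r = -0.91. Points of a group share its treatment and 1 scaling, and single libraries such as CTL-WT replicate 01 weigh on each value. The 5 genes outside the set most like the mean standardized profile of the members were Sox8 (r = 0.91), Sik1 (r = 0.91), Fos (r = 0.88), Csrnp1 (r = 0.88) and Mark1 (r = 0.87), among 13121 genes over 12 libraries. Fos encodes a subunit of the AP-1 factor and Sik1 a kinase of CREB co-activators. Of the members, Nr4a1 (r = 0.95) and Egr2 (r = 0.93) were most like that mean, to which they contribute. The least like it were Npas4 (r = 0.26), Egr3 (r = 0.14), Egr4 (r = 0.09) and Nr4a2 (r = -0.17), so the mean does not describe these members.

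Per kilobase of annotated exon, the CTL-WT level was 4099 ± 1334 normalized counts (SD, n = 3) for Egr1, 2158 ± 345 for Egr3, 1747 ± 789 for Nr4a1 and 1149 ± 278 for Ier5. It was 719 ± 20.5 for Nr4a2, 688 ± 159 for Egr4, 397 ± 188 for Ier2, 364 ± 94.6 for Npas4, 183 ± 61.6 for Nr4a3 and 167 ± 115 for Egr2. The neighbours Egr3 and Nr4a1, Nr4a1 and Ier5, Nr4a2 and Egr4, Ier2 and Npas4, and Nr4a3 and Egr2 differed by less than the larger of their SDs. In SD-WT the level per kilobase was 4337 ± 290 for Egr3 and 358 ± 33.2 for Egr4.

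Between genotypes, 0 of the 10 members passed the threshold in undisturbed mice (limma, where 0.0197% of 20273 genes passed, and 0 members had an unadjusted p under 0.05, as 8.53% of genes had) or after SD (0.0145% of 20621 genes, with an unadjusted p under 0.05 for 2 members, Egr1 and Nr4a2, and for 6.13% of genes). edgeR also called 0 members in both, and DESeq2 called 0 in undisturbed mice and 1, Nr4a2, after SD. In undisturbed mice the log2 fold changes (AcPb-/- over WT) ranged from -0.71 for Nr4a2 (SE 0.33, limma adjusted p = 0.601) to 0.35 for Npas4 (SE 0.22, limma adjusted p = 0.67). Without CTL-AcPbKO replicate 03 the Nr4a2 value was -1.19 (limma adjusted p = 0.00179). After SD the values ranged from -0.30 for Egr1 (SE 0.10, limma adjusted p = 0.692) to 0.55 for Nr4a2 (SE 0.13, limma adjusted p = 0.391), and DESeq2 gave 0.56 for Nr4a2 (DESeq2 adjusted p = 0.0135). Groups did not overlap after SD for Egr1 and Ier2, lower in AcPb-/- mice, and Nr4a2, higher, 3 of 10 against 11.3% of genes. In undisturbed mice 0 members were free of overlap, against 14.3%.

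Whether SD acted differently in the genotypes was tested as the interaction over 12 libraries, which was past the threshold for 0 of 20978 genes (0.0%) in limma, 0 in edgeR and 1 in DESeq2, and 839 genes (4.0%) had an unadjusted limma p under 0.05. Of the members only Nr4a2 did, with a difference of 1.26 on the log2 scale (SE 0.42, limma adjusted p = 0.986). Without CTL-AcPbKO replicate 03 it was 1.74 (limma adjusted p = 0.015), and without the libraries with Xist it was 0.27 (limma adjusted p = 1). For the other 9 members the differences lay between -0.31 and 0.15. The difference was -0.14 (SE 0.16) for Egr3 and -0.29 (SE 0.22) for Egr4.

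Regulators upstream of these genes, CREB, SRF and MEF2 factors with their co-activators (14 genes), were higher after SD in 9 and lower in 0 in WT mice, with a median log2 fold change of 0.27, and higher in 6 and lower in 1 in AcPb-/- mice, with a median of 0.23. In WT mice Crebbp, a histone acetyltransferase bound by CREB, rose by 0.40 (limma adjusted p = 0.0112), Mef2d by 0.39, Elk1, an SRF partner, by 0.36 and Crtc2, a CREB co-activator, by 0.32. In AcPb-/- mice Elk1 rose by 0.40 (limma adjusted p = 0.00587), Creb1 by 0.39, Mef2d by 0.32 and Crebbp by 0.30. The 1 lower gene, Crtc1, a CREB co-activator named after its values were seen, fell by 0.23 (limma adjusted p = 0.0272), and this call was lost without CTL-AcPbKO replicate 04 or 05 or SD-AcPbKO replicate 03 or 04, in 1 fit of 12 libraries, with the Xist term and without the libraries with Xist. The WT count of 9 was 4 without CTL-WT replicate 02, 7 without CTL-WT replicate 03 and 2 without SD-WT replicate 01 or 02. It was 10 without SD-WT replicate 04. The AcPb-/- count of 6 was 3 without CTL-AcPbKO replicate 04 or 05 or SD-AcPbKO replicate 02 or 04, and 8 without SD-AcPbKO replicate 03. With the Xist term the counts of higher genes were 4 and 3. Both were smaller without the libraries with Xist, a fit with 1 control for each genotype in which fewer of all genes passed. Over all genes 13.2% were higher and 12.2% lower in WT mice and 14.1% and 13.3% in AcPb-/- mice. These shares are the background for the main counts of this list and of the lists that follow. All of these lists were chosen with earlier results of these data known, so counts above the shares are descriptions and not tests. For counts with the Xist term the share was 19.3% in WT and 24.7% in AcPb-/- mice, in either direction.

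Partners of the members (7 genes, NAB corepressors of EGR factors, ARNT partners of NPAS4 and RXR partners of NR4A receptors) were higher in 1 and lower in 1 in WT mice and higher in 1 and lower in 2 in AcPb-/- mice. Arnt rose by 0.32 in WT (limma adjusted p = 0.00814) and 0.41 in AcPb-/- mice (limma adjusted p = 0.00536). Rxrb fell by 0.23 and 0.27, and Arnt2 fell by 0.18 in AcPb-/- mice. The count of higher genes in WT, 1, was 2 without CTL-WT replicate 03. The count of lower genes in WT, 1, was 0 without CTL-WT replicate 02 or SD-WT replicate 01 or 02, and that in AcPb-/- mice, 2, was 0 without SD-AcPbKO replicate 02 and 1 without any other library. Counts higher and lower were 2 and 1 in WT and 3 and 2 in AcPb-/- mice with the Xist term. Each of these was smaller without the libraries with Xist, where fewer of all genes passed. Median log2 fold changes were 0.04 and 0.10. Nab1 and Nab2 did not pass in either genotype.

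Of 6 relatives of the members, 2 were higher and 3 lower in WT mice and 2 were higher and 2 lower in AcPb-/- mice, with medians of -0.21 and -0.05. Npas2, a partner of BMAL1 in the circadian clock, rose by 0.69 in WT (limma adjusted p = 0.00174) and 0.52 in AcPb-/- mice (limma adjusted p = 0.0244). Ier3 rose by 0.46 and 0.51, and Npas3 fell by 0.48 and 0.46. Npas1 fell by 0.28 in WT mice (limma adjusted p = 0.0303) and 0.35 in AcPb-/- mice, and Ier5l by 0.47 in WT mice, with a value of -0.55 in AcPb-/- mice that did not pass (limma adjusted p = 0.0855). In WT mice 1 was higher without CTL-WT replicate 01 or 02 or SD-WT replicate 01, and 1 was lower without CTL-WT replicate 02 or 03 or SD-WT replicate 02. Of AcPb-/- values, 1 was higher without CTL-AcPbKO replicate 04 or 05 or SD-AcPbKO replicate 02 or 04, and 1 was lower without CTL-AcPbKO replicate 04 or SD-AcPbKO replicate 02, 03 or 04. Counts higher and lower in WT and then in AcPb-/- mice were 2 and 2, and 1 and 2, with the Xist term. Without the libraries with Xist, where fewer of all genes passed, the WT counts were smaller and the AcPb-/- counts the same.

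Of 23 other immediate-early genes, 4 were higher and 2 lower in WT mice and 5 were higher and 4 lower in AcPb-/- mice, against a background of 13.2% and 12.2% in WT and 14.1% and 13.3% in AcPb-/- mice, with medians of 0.03 and 0.04. The largest changes past the threshold were in the same 4 genes in both genotypes. Btg2, an antiproliferative gene, fell by 1.05 (limma adjusted p = 0.0206) and 1.10 (limma adjusted p = 0.00161). Maff, a small MAF factor, rose by 0.86 and 0.96, Homer1, whose short form loosens synaptic scaffolds, by 0.59 and 0.69, and Trib1, a pseudokinase, by 0.67 and 0.69. Fos, among the genes most like the mean profile of the members, had log2 fold changes of -0.23 (limma adjusted p = 0.737) and -0.21 (limma adjusted p = 0.532). With the Xist term 12 were higher and 1 lower in WT mice and 13 and 1 in AcPb-/- mice. The shares over all genes with that term, in either direction, were 19.3% in WT and 24.7% in AcPb-/- mice. Without the libraries with Xist, a fit with 1 control for each genotype, fewer of all genes passed. More genes of this list were higher there than in the main counts, and fewer were lower, in both genotypes. Without CTL-WT replicate 01 the WT counts were 2 higher and 6 lower, and without CTL-WT replicate 03 they were 7 and 1. The same counts were 2 and 1 without CTL-WT replicate 02 or SD-WT replicate 01 or 02, and 3 and 2 without SD-WT replicate 04. In AcPb-/- mice they were 4 and 7 without CTL-AcPbKO replicate 03, 4 and 2 without CTL-AcPbKO replicate 04 and 7 and 3 without CTL-AcPbKO replicate 05. They were 2 and 2 without SD-AcPbKO replicate 02 or 04, and 5 and 2 without SD-AcPbKO replicate 03.

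Late effectors, genes induced downstream of such factors (10 genes), were higher in 7 and lower in 0 in WT mice and higher in 8 and lower in 0 in AcPb-/- mice, with medians of 0.47 and 0.49. Scg2, a precursor of secretory peptides, rose by 1.0 (limma adjusted p = 0.00029) and 1.11 (limma adjusted p = 0.00061), from a mean of 9326 ± 632 (SD, n = 3) to 18762 ± 2807 normalized counts in WT mice. Inhba, the activin A subunit, rose by 0.94 and 1.46, Gpr3, a constitutively active receptor, by 0.89 and 0.90, and Bdnf, the neurotrophin, by 0.60 (limma adjusted p = 0.033) and 0.76 (limma adjusted p = 0.00726). The counts were 5 to 8 in WT and 7 to 9 in AcPb-/- mice as each library was left out, and 6 and 7 with the Xist term. Both were smaller without the libraries with Xist, a fit with 1 control for each genotype in which fewer of all genes passed.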

How the data were processed

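The deposited tables hold, for each library, a signal per gene, which is the read count divided by a DESeq2 size factor of the table, by the authors. Per the labels and methods, poly(A) libraries (TruSeq Stranded mRNA) were sequenced and aligned with HISAT2 (version 2.2.1) to mm10. The labels name featureCounts and the methods HTSeq for counting, and strand settings are not given in the sources used here. DESeq2 (version 1.31.16 in the submitters' processing notes) compared 2 groups at a time. The authors' mean, log2 fold change, its standard error, Wald statistic score, p-value and adjusted p-value columns were not used. The table that compares SD-AcPbKO with CTL-WT mixes both factors and served only to recover reads. Size factors were undone, and 100.0% of 732630 values came within 0.01 of a whole read. Replicate pairs differed by more than sampling noise.

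Each comparison used limma (version 3.58.1, R 4.3.3) with a variance trend on log2(normalized count + 1) of the 2 groups, for genes with 1 read or more among them. Adjusted p-values are Benjamini-Hochberg values across all genes tested, with a threshold of 0.05. The log2 scale with this pseudocount understates the change of low genes. The interaction, and the levels printed, used the 12 libraries scaled together by median of ratios. The design had named edgeR only for raw counts. Alternatives were edgeR (version 4.0.16) and DESeq2 (version 1.42.0) applied to the reads, a mean of at least 10, a pseudocount of 10, median centring, 1 fit of 12 libraries, the same with a term for Xist (at least 1000 reads), without those libraries, thinning to the smallest total, a replicate block and each library left out. The fits were run on simulated counts with the same spread setting for all genes and no differences between libraries other than depth. This check of the code does not show how the fits behave at the spread of these controls.

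All 10 members were named. Of the lists (upstream regulators, partners, relatives, other immediate-early genes, late effectors), up to 4 genes past the threshold with the largest absolute change were named for each SD comparison. Crtc1 in AcPb-/- and Npas1 in WT mice were named beyond this rule, after their values were seen. Members and lists were chosen with earlier results of these data known. Positions are from GENCODE M21 on GRCm38 and windows from RefSeq. Analyses used Python 3.11.15, pandas 2.3.3 and matplotlib 3.10.9.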

Additional observations from a re-analysis of the deposited data

How the results depend on the processing

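The calls of Egr3 and Egr4 in both genotypes, of Nr4a2 in WT and of Ier2 in AcPb-/- mice held with DESeq2, edgeR, a mean of at least 10, a pseudocount of 10, median centring and thinning. The members past the threshold after SD numbered 7 in WT and 6 in AcPb-/- mice with a term for Xist, and 5 in AcPb-/- mice with DESeq2, and edgeR called 4 in WT mice, with Egr1 added. As each library was left out they numbered 3 to 5 in either genotype, 0 to 1 between genotypes in undisturbed mice, 0 after SD and 0 to 1 for the interaction. With DESeq2 1 member passed between genotypes after SD. Over all genes the counts after SD were 5186 in WT (2699 to 6222 as libraries were left out, 680 without the libraries with Xist) and 5633 in AcPb-/- mice (3393 to 5412 and 2080). Between genotypes the 4 genes in undisturbed mice became 104 with DESeq2, 8 with edgeR or 1 fit of 12 libraries, 7 with the Xist term, 0 without those libraries, with a pseudocount of 10 or with thinning, and 0 to 168 as libraries were left out. The 3 genes after SD became 99 with DESeq2, 10 with centring, 9 with edgeR, 5 in 1 fit, 13 with the Xist term, 0 without those libraries or with the block, and 0 to 4 as libraries were left out. The interaction count of 0 became 1 with DESeq2 and 0 to 9 as libraries were left out. The cause of these changes was not tested.

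Groups share at most 2 replicate numbers and the labels tie them to no animal or batch, so they were not taken as pairs. Deviations of same-numbered libraries correlated at -0.14 to 0.10 between CTL and SD, at 0.22 and 0.23 between genotypes after SD and at -0.43 for the 1 number shared by the undisturbed groups. With the replicate number as a block, 0 members and 0 genes passed after SD in either genotype, in fits with 1 residual degree of freedom. Egr3 was 0.95 in WT and 0.80 in AcPb-/- mice and Egr4 was -0.86 and -1.15. In undisturbed mice the genotypes share 1 number, so no block could be fitted. Interaction values that turned sign with the block were 0.14 for Egr1, 0.51 for Egr2, 0.066 for Nr4a1 and 0.092 for Ier5.

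Members that turned sign under an alternative follow with their log2 values. For SD in WT mice, DESeq2 and edgeR gave -0.11 and -0.11 for Egr2, the Xist term gave 0.049 for Ier2, and the fit without those libraries gave 0.36 for Npas4 and 0.43 for Ier2. As libraries were left out Egr2 ranged from -0.52 to 0.76, Npas4 from -0.33 to 0.050 and Nr4a1 from -0.12 to 0.61. For SD in AcPb-/- mice the fit without those libraries gave -0.19 for Nr4a2, and as libraries were left out Egr2 ranged from -0.32 to 0.62, Ier5 from -0.080 to 0.31 and Nr4a1 from -0.13 to 0.35. Between genotypes in undisturbed mice DESeq2 and edgeR gave -0.027 and -0.040 for Egr2, -0.030 and -0.034 for Nr4a1 and -0.11 and -0.12 for Ier2, and the fit without those libraries gave 0.28 for Nr4a2, 0.37 for Nr4a3 and -0.16 for Ier5. There the ranges as libraries were left out were -0.44 to 0.074 for Egr1, -0.62 to 0.65 for Egr2, -0.15 to 0.081 for Egr3, -0.057 to 0.28 for Egr4, -0.46 to 0.31 for Ier2, -0.15 to 0.24 for Ier5, -0.38 to 0.34 for Nr4a1 and -0.32 to 0.19 for Nr4a3. After SD they were -0.078 to 0.35 for Egr2, -0.044 to 0.18 for Npas4 and -0.080 to 0.28 for Nr4a3. For the interaction, DESeq2 and edgeR gave 0.17 and 0.18 for Egr2, and the fit without those libraries gave 0.16 for Egr3, -0.27 for Nr4a3 and 0.033 for Ier5. The ranges as libraries were left out were -0.37 to 0.14 for Egr1, -0.55 to 0.72 for Egr2, -0.51 to 0.26 for Ier2, -0.37 to 0.024 for Ier5, -0.49 to 0.23 for Nr4a1 and -0.084 to 0.42 for Nr4a3.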
